A study of Mus musculus with 12 samples.

Results

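Plakins, desmosome plaque proteins and keratins are the parts that tie intermediate filaments to sites of adhesion, and 10 of their genes were followed here. They were Ppl, Evpl, Dsp, Plec, Jup, Pkp2, Pkp4, Krt8, Krt18 and Krt19, read by gene symbol from a table of 54532 genes. The set was chosen by measured values, since Ppl was among the largest rises after depletion of KEAP1, so the difference between siKEAP1 and siCONTROL is given for these genes as a description, without a test. Of the 10 genes, 7 passed a filter on low counts (Ppl, Evpl, Plec, Jup, Pkp2, Pkp4 and Krt19). Dsp, Krt8 and Krt18 did not.

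The cells were C2C12, an established line of mouse myoblasts that can be led to fuse into myotubes. All were transfected with siRNA at 30 nM for 48 h and grown as myoblasts, and poly(A) RNA was sequenced from 3 biological replicates in each of 4 groups. The groups were siCONTROL, siKEAP1, siCCNF and siKEAP1/siCCNF, the last receiving both siRNAs. KEAP1 is the substrate adaptor of a CUL3 ubiquitin ligase that turns over the transcription factor NRF2, and CCNF (cyclin F) is a substrate adaptor of a CUL1 ubiquitin ligase. The line carried no engineered allele that the labels name, and no group was left without siRNA. Depletion by siRNA was partial, as the mRNA levels of both targets show below, and in RNA from whole cultures fewer cells of a type and less RNA per cell cannot be told apart.

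Plakins are large linker proteins. Periplakin (Ppl) and envoplakin (Evpl) are best known from the cornified envelope of stratified epithelia, desmoplakin (Dsp) joins the desmosomal plaque to keratin filaments, and plectin (Plec) links intermediate filaments to many structures and is prominent in muscle. In desmosomes the cadherins (desmogleins and desmocollins) bind plakoglobin (Jup) and plakophilins, which bind desmoplakin. Keratins form filaments only as pairs of a type I and a type II protein, such as Krt18 with Krt8 in simple epithelia, while myoblasts are known mainly for vimentin and desmin filaments.

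The libraries held 18464209 to 37743198 counts. Keap1 stood at 87.8 ± 3.05 counts per 1000000 (CPM, mean ± SD, n = 3 here and below) in siCONTROL, 12.6 ± 0.279 in siKEAP1, 85.1 ± 4.35 in siCCNF and 24.1 ± 2.56 in siKEAP1/siCCNF, and Ccnf at 81.1 ± 3.99, 59.4 ± 4.83, 20.5 ± 0.778 and 24.5 ± 1.01. The labels were thus borne out in every group, and Keap1 was 0.93 higher on the log2 scale in siKEAP1/siCCNF than in siKEAP1 (adjusted p = 1.07e-06, edgeR's quasi-likelihood test). Whether the weaker depletion of Keap1 took part in the differences below was not tested. In 2 libraries the values of genes followed gene length more strongly than elsewhere (siCONTROL replicate 1 and siKEAP1/siCCNF replicate 3), and results that rest on them are also given without them. The summed level of 8 myoblast markers lay at 1651 to 1929 CPM in siCONTROL, 991 to 1030 in siKEAP1, 849 to 883 in siCCNF and 802 to 877 in siKEAP1/siCCNF.

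The order of the 10 genes was set by FPKM, which counts reads per length of transcript. In siCONTROL, Plec led with 48.4 ± 14.1 FPKM, followed by Jup with 18.3 ± 1.28, Pkp4 with 8.24 ± 0.605, Pkp2 with 7.14 ± 0.275 and Krt19 with 2.86 ± 0.372. Ppl stood at 0.130 ± 0.0124 FPKM, and Evpl, Dsp, Krt8 and Krt18 at 0.0236 or less, the ranges of these last 4 overlapping from each to the next. In siKEAP1, Krt19 moved to the second place with 24.6 ± 2.22 FPKM and Ppl reached 6.02 ± 0.245, still below Pkp4 at 7.66 ± 0.468. In siCCNF and in siKEAP1/siCCNF, Pkp2 came second, with 11.4 ± 0.903 and 11.8 ± 0.515 FPKM, and the ranges of Jup and Pkp4 overlapped.

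**Figure D1:**
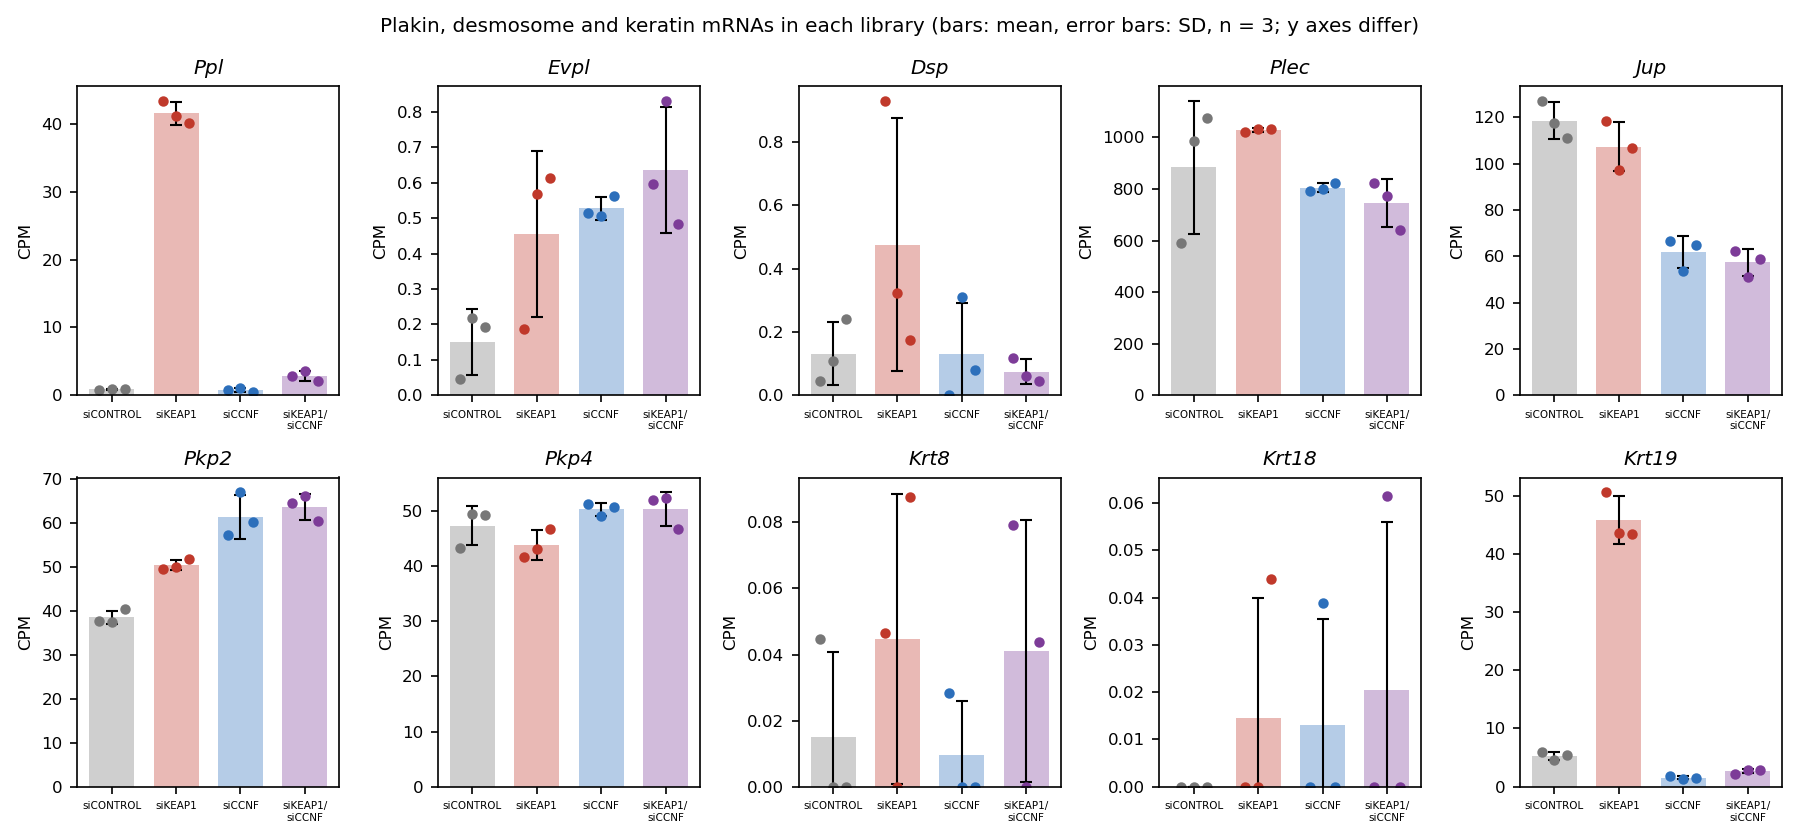
Each panel plots 1 gene in CPM on a linear axis from 0, with a point for each of the 12 libraries, bars for the mean and error bars for the SD (n = 3, drawn only above 0). Ppl and Krt19 stood at 40.2 to 43.5 and 43.3 to 50.6 CPM in siKEAP1 and at 6.01 CPM or less in every other library, while Jup was lower and Pkp2 higher in both groups that received siCCNF than in siCONTROL.

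Ppl, a gene on chromosome 16 of GRCm38 from 5086291 to 5132421 on the minus strand (ENSMUSG00000039457), was near the limit of detection in control myoblasts and was abundant only after siKEAP1 among these 4 groups. It was read at 0.807, 0.977 and 0.915 CPM in the siCONTROL libraries, from 18 or 19 counts each. The siKEAP1 libraries held 43.5, 41.2 and 40.2 CPM, from 916 to 1018 counts. The siCCNF libraries were back at 0.770, 1.01 and 0.429 CPM, and those of siKEAP1/siCCNF lay at 2.86, 3.60 and 2.15 CPM. All siKEAP1/siCCNF libraries were thus above all siCCNF and siCONTROL libraries and far below all siKEAP1 libraries. Fitted over all 12 libraries, Ppl was 46.2-fold higher in siKEAP1 than in siCONTROL (log2 difference 5.53, SE 0.223), which is the value that chose it. That difference was 2.64 on the log2(FPKM + 1) scale and 4.74 on the log2(FPKM + 0.1) scale with limma.

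The effect of siKEAP1 in cells also depleted of CCNF rests on other libraries than those of the choice, and there Ppl rose 4.07-fold (siKEAP1/siCCNF against siCCNF, log2 difference 2.03, SE 0.245, adjusted p = 0.00038, edgeR's quasi-likelihood test). Its 95% interval ran from 1.50 to 2.56 on the log2 scale. The rise was called under each of 23 other settings, with log2 differences of 1.72 to 2.27 when any library was left out. On the log2(FPKM + 1) scale, where the pseudocount exceeds the level of Ppl in every library of these groups, limma gave a difference of 0.35. Ppl was 14.3-fold lower in siKEAP1/siCCNF than in siKEAP1, and the log2 difference after siKEAP1 was smaller by 3.51 (SE 0.364) in CCNF-depleted than in control cells, both given without a test because they contain the siKEAP1 libraries.

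Evpl, the plakin that dimerizes with periplakin, stayed scarce throughout, at 1 to 27 counts per library. The siCONTROL libraries held 1, 4 and 4 counts and the siKEAP1 libraries 4, 14 and 14. There were 18, 13 and 21 counts in siCCNF and 15, 27 and 11 in siKEAP1/siCCNF. Of its 12 libraries, none of siCONTROL, 2 of siKEAP1 and all 6 with siCCNF reached the level that the low-count filter asks for, so the difference from siCONTROL was partly fixed by the filter and is given without a test. Evpl was 0.152 ± 0.0932 CPM in siCONTROL, 0.527 ± 0.0316 in siCCNF and 0.637 ± 0.178 in siKEAP1/siCCNF. The fitted log2 difference from siCONTROL was 1.81 for siCCNF (SE 0.551) and 2.10 for siKEAP1/siCCNF (SE 0.546). With 1 library left out, these ranged from 1.35 to 2.14 and from 1.63 to 2.42. For siCCNF it was 1.35 without both libraries with a length trend and 0.080 with limma on log2(FPKM + 1). Between siKEAP1/siCCNF and siCCNF the difference was 0.29, with an interval from -0.60 to 1.18 (adjusted p = 0.785), so its size was not settled at this depth. In siKEAP1, where Ppl was highest, Evpl stood at 0.456 ± 0.235 CPM.

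Dsp was close to undetected. Its libraries held 1, 2 and 5 counts in siCONTROL, 20, 8 and 4 in siKEAP1, 0, 8 and 3 in siCCNF and 3, 2 and 1 in siKEAP1/siCCNF. The highest value, 0.929 CPM, came from siKEAP1 replicate 1 alone. Dsp was not tested in the main fit. In a fit that kept every gene with a count, the siKEAP1/siCCNF libraries were called lower than those of siKEAP1 (adjusted p = 0.0219, edgeR's quasi-likelihood test), and no fold is given because siKEAP1/siCCNF had no library above 3 counts. Of the 32 siKEAP1 counts, 20 came from replicate 1, so little rests on that call. No other tested comparison of Dsp, Krt8 or Krt18 was called in that fit.

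Plec was the most abundant of the 10 genes, and its values depended on single libraries. It was read at 590, 986 and 1076 CPM in siCONTROL, and at 1022, 1034 and 1034 CPM in siKEAP1. The siCCNF libraries held 790, 800 and 825 CPM and the siKEAP1/siCCNF libraries 823, 774 and 641 CPM. The lowest libraries of the siCONTROL and siKEAP1/siCCNF groups were siCONTROL replicate 1 and siKEAP1/siCCNF replicate 3, the same that stood apart by gene length. Across 15122 genes the deviations of these libraries from their group means correlated with log gene length at r = -0.305 and -0.276, against -0.094 to 0.206 in the other libraries, and the length of Plec in the table is 18113 bases. Plec overlaps Parp10, on the same strand, over chromosome 15 from 76231174 to 76232574. Parp10 held 754 to 2134 counts per library, and how the counting split the shared stretch is not stated.

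With all libraries, Plec fell by 0.47 on the log2 scale in siKEAP1/siCCNF against siKEAP1 (SE 0.166, adjusted p = 0.0316, edgeR's quasi-likelihood test). That call was lost without siKEAP1 replicate 1 (adjusted p = 0.0673), replicate 2 (0.0738) or replicate 3 (0.0706), and without siKEAP1/siCCNF replicate 2 (0.0589) or replicate 3 (-0.36, adjusted p = 0.115). It held, at -0.36 and an adjusted p of 5.57e-06, without both libraries with a length trend. Against siCONTROL no difference was called with all libraries, at -0.14 for siCCNF (adjusted p = 0.524) and -0.25 for siKEAP1/siCCNF (adjusted p = 0.251). Without siCONTROL replicate 1 both were called lower, at -0.36 (adjusted p = 0.00369) and -0.47 (adjusted p = 0.000492), while without siCONTROL replicate 3 siCCNF stood at 0.028 (adjusted p = 0.908). The untested difference between siKEAP1 and siCONTROL moved from 0.22 to -0.012 without siCONTROL replicate 1. 

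**Figure D2:**
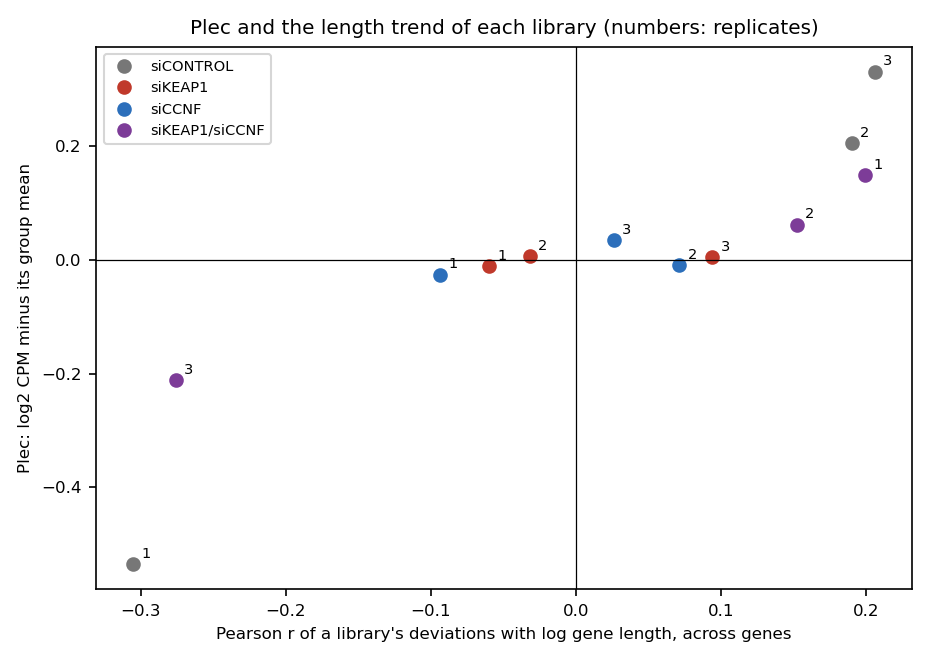
Each point is 1 library, placed by the Pearson r of its deviations from the group mean with log gene length across 15122 genes (x axis, no unit) and by the deviation of Plec from its group mean (y axis, log2 CPM). siCONTROL replicate 1 (r = -0.305, Plec -0.54) and siKEAP1/siCCNF replicate 3 (r = -0.276, Plec -0.21) lie apart at the lower left.

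The other plakins in the table were Dst, Macf1 and Eppk1. Dst and Macf1, which link filaments to the cytoskeleton in many cell types, had the same low libraries as Plec: Dst was read at 131 CPM and Macf1 at 237 CPM in siCONTROL replicate 1, against 330 to 350 and 444 to 449 CPM in the other siCONTROL libraries. Neither was called in any comparison with all libraries (the lowest unadjusted p was 0.0659, for Dst in the test of whether the difference after siKEAP1 depended on CCNF depletion). Without both libraries with a length trend, Dst was called higher in siKEAP1 than in siCONTROL (0.27 on the log2 scale, adjusted p = 0.0023, edgeR's quasi-likelihood test) and in siCCNF than in siCONTROL (0.17, adjusted p = 0.0333). Macf1 was then called lower than in siCONTROL in siKEAP1 (-0.24, adjusted p = 0.000376), siCCNF (-0.28, adjusted p = 9.37e-05) and siKEAP1/siCCNF (-0.27, adjusted p = 0.000345). The difference after siKEAP1 then depended on CCNF depletion for both, by -0.27 for Dst (adjusted p = 0.0293) and 0.25 for Macf1 (adjusted p = 0.00823), and neither was called in siKEAP1/siCCNF against siCCNF (adjusted p = 0.983 and 0.956) or against siKEAP1 (0.171 and 0.645). Eppk1 (epiplakin, a keratin-binding plakin, named after its values were seen) stood at 0.326 ± 0.137 CPM in siCONTROL and 5.92 ± 0.284 in siKEAP1 (log2 difference 4.17, SE 0.497, adjusted p = 2.03e-05, edgeR's quasi-likelihood test). Of its siCONTROL libraries, 1 reached the level that the low-count filter asks for. The rise was called in each of 22 other settings, with log2 differences from 0.53 to 4.56. Eppk1 was 4.90-fold lower in siKEAP1/siCCNF than in siKEAP1 (adjusted p = 0.000325).

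Among the desmosome plaque genes, Jup was lower wherever CCNF was depleted. Plakoglobin, its product, binds both desmosomal and classical cadherins. Jup was read at 127, 118 and 111 CPM in siCONTROL and at 118, 97.3 and 107 CPM in siKEAP1, ranges that overlapped. The siCCNF libraries held 66.7, 53.8 and 64.9 CPM and the siKEAP1/siCCNF libraries 62.1, 51.1 and 58.7 CPM, all below every library without siCCNF. Jup fell by 0.94 on the log2 scale in siCCNF against siCONTROL (SE 0.103, adjusted p = 8.07e-06, edgeR's quasi-likelihood test). It fell by 1.05 in siKEAP1/siCCNF against siCONTROL (adjusted p = 3.73e-06) and by 0.91 in siKEAP1/siCCNF against siKEAP1 (adjusted p = 1.01e-05). Between siKEAP1/siCCNF and siCCNF the difference was -0.11, with an interval from -0.33 to 0.11 (adjusted p = 0.642).

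Pkp2, a plakophilin found in simple epithelia and heart, went the other way. It stood at 37.8, 37.4 and 40.4 CPM in siCONTROL and 49.5, 50.1 and 51.8 CPM in siKEAP1. The siCCNF libraries held 57.2, 67.1 and 60.2 CPM and the siKEAP1/siCCNF libraries 64.7, 66.2 and 60.4 CPM. The siCONTROL libraries were the lowest and those with siCCNF the highest, with siKEAP1 between them and no overlap. Pkp2 rose by 0.67 on the log2 scale in siCCNF against siCONTROL (SE 0.0725, adjusted p = 6.65e-06, edgeR's quasi-likelihood test), by 0.73 in siKEAP1/siCCNF against siCONTROL (adjusted p = 4.03e-06) and by 0.34 in siKEAP1/siCCNF against siKEAP1 (adjusted p = 0.00155). Its difference between siKEAP1/siCCNF and siCCNF was 0.053, with an interval from -0.10 to 0.21 (adjusted p = 0.768).

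Pkp4, an armadillo protein related to p120-catenin, varied least among the tested genes, between 41.6 and 52.3 CPM over all 12 libraries. It was called in a single comparison, at 0.20 higher on the log2 scale in siKEAP1/siCCNF than in siKEAP1 (SE 0.0759, adjusted p = 0.0418, edgeR's quasi-likelihood test), where the libraries overlapped at 46.8 CPM. The call was lost in 13 of 23 other settings. Among these were the fits without siKEAP1 replicate 1 (adjusted p = 0.156) or replicate 2 (0.117), without siKEAP1/siCCNF replicate 1 (0.113) or replicate 2 (0.129), without siCCNF replicate 1 (0.0528), 2 (0.0549) or 3 (0.0569) and without siCONTROL replicate 3 (0.0504). With the replicate number as a block it stood at 0.20 with an adjusted p of 0.0597.

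The partners that these plaque proteins would need in a desmosome were scarce or absent. Of 9 desmosomal cadherin genes, Dsg1a, Dsg1b, Dsg3, Dsg4 and Dsc1 had no count in any library. Dsg1c and Dsg2 had at most 1 and 2 counts, Dsc2 at most 12 and Dsc3 at most 11 counts per library. None of the 9 passed the filter. The remaining desmosome genes did, and all 3 were higher in siKEAP1 than in siCONTROL, where 20.4% of all genes tested were called higher. Pkp3 stood at 0.657 ± 0.199 CPM in siCONTROL and 4.12 ± 0.699 in siKEAP1 (log2 difference 2.63, adjusted p = 3.17e-05, edgeR's quasi-likelihood test), and Perp, a membrane protein of desmosomes, at 1.30 ± 0.252 and 4.73 ± 0.615 CPM (1.87, adjusted p = 1.01e-05). Pkp1 differed little between these groups, at 57.9 ± 2.73 and 69.8 ± 3.91 CPM (0.27, adjusted p = 0.0122), a call that was lost without siKEAP1 replicate 1 (0.24, adjusted p = 0.0602) or replicate 3 (0.25, adjusted p = 0.0527).

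With CCNF depletion, Pkp1 fell by 1.80 on the log2 scale, to 16.6 ± 0.656 CPM in siCCNF (adjusted p = 5.4e-09, edgeR's quasi-likelihood test), so that Jup and Pkp1 were lower while Pkp2 was higher. Perp rose by 0.76 (adjusted p = 0.00986). In siKEAP1/siCCNF against siKEAP1 all 3 of these genes fell, with log2 differences of -1.84 for Pkp1, -2.13 for Pkp3 and -0.76 for Perp, where 26.9% of all genes tested were called lower. Of the 3 genes, 0 were called in siKEAP1/siCCNF against siCCNF in the main edgeR fit, where 3.00% of all genes tested were called higher and 2.19% lower. An unadjusted p under 0.05 was found for 2 of them (Pkp1 and Pkp3). Pkp3 was nearest, at 1.31 (SE 0.369, adjusted p = 0.0634), and it was called without siCCNF replicate 2 (1.73, adjusted p = 0.0292), without siCONTROL replicate 1 (1.30, adjusted p = 0.0493) and with DESeq2 (1.32, adjusted p = 0.0119). By edgeR it was also called with no filter (1.30, adjusted p = 0.0265) and with the gene length trend removed (1.28, adjusted p = 0.0477). Pkp1 was called higher by edgeR without both libraries with a length trend (0.29, adjusted p = 0.012).

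Of the keratins, Krt19 (chromosome 11 of GRCm38, 100140810 to 100148665, minus strand, ENSMUSG00000020911) was the member that these myoblasts expressed. Keratin 19 is a small type I keratin of simple epithelia. The siCONTROL libraries held 6.01, 4.61 and 5.39 CPM and the siKEAP1 libraries 50.6, 43.6 and 43.3 CPM. The siCCNF libraries were lower, at 1.80, 1.40 and 1.50 CPM, and the siKEAP1/siCCNF libraries lay at 2.26, 2.90 and 2.81 CPM. The 4 groups did not overlap, and the order from low to high was siCCNF, siKEAP1/siCCNF, siCONTROL and siKEAP1. After siKEAP1 the level was 8.55-fold that of siCONTROL (log2 difference 3.10, SE 0.128, no test).

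In contrast to Ppl, Krt19 was below the control level in both groups with siCCNF. It fell by 1.76 on the log2 scale in siCCNF against siCONTROL (SE 0.152, adjusted p = 9.36e-07, edgeR's quasi-likelihood test) and by 1.01 in siKEAP1/siCCNF against siCONTROL (SE 0.145, adjusted p = 9.38e-05). It was 17.2-fold lower in siKEAP1/siCCNF than in siKEAP1 (log2 difference -4.10, SE 0.136, adjusted p = 5.01e-10). siKEAP1 raised it 1.69-fold in CCNF-depleted cells (log2 difference 0.76, SE 0.16, 95% interval 0.41 to 1.10, adjusted p = 0.0158), all siKEAP1/siCCNF libraries being above all siCCNF libraries. This call was lost without siCCNF replicate 2 (0.68, adjusted p = 0.06) or replicate 3 (0.71, adjusted p = 0.0748) and without siKEAP1/siCCNF replicate 2 (0.67, adjusted p = 0.0804), and also when only the compared libraries were fitted (0.75, adjusted p = 0.094). The log2 difference after siKEAP1 was smaller by 2.34 (SE 0.205, no test) in CCNF-depleted than in control cells.

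The simple epithelial pair was near the floor. Krt8 held 0 to 2 counts per library and 8 in all 12 libraries, and Krt18 held 0 to 2 counts per library and 4 in all. No group of either gene had a library above 3 counts, so no fold is given and a difference was not detectable at this depth.

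**Figure D3:**
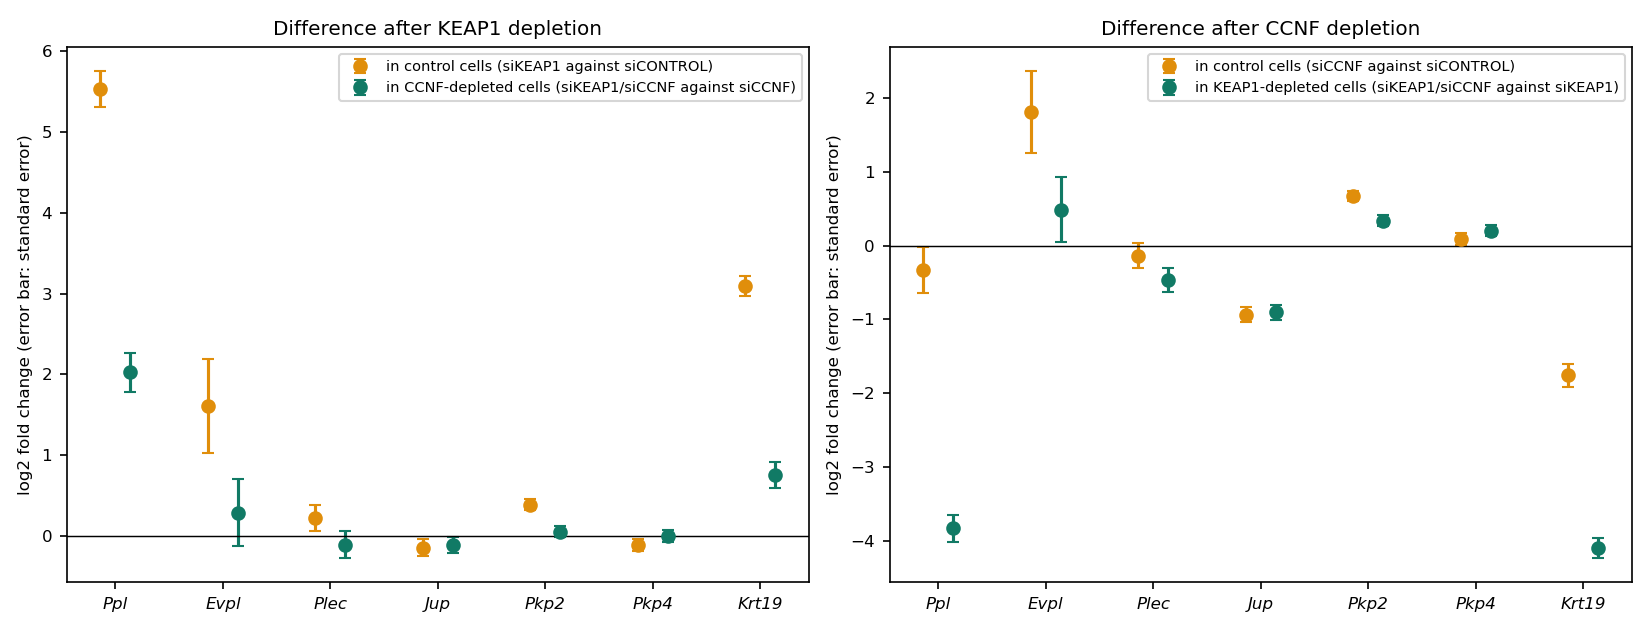
The log2 fold changes of the 7 tested genes are plotted with their standard errors, on the left after KEAP1 depletion and on the right after CCNF depletion, in cells without (orange) and with (green) the other depletion. On the left Ppl stood at 5.53 and 2.03 and Krt19 at 3.10 and 0.76, the orange values untested, while on the right Jup stood at -0.94 and -0.91. The orange and green values of 1 panel share no library.

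Counted over the set, siKEAP1/siCCNF against siCCNF called 2 of 7 tested genes higher (Ppl and Krt19) and 0 lower, where 3.00% of all genes tested were called higher and 2.19% lower by edgeR's quasi-likelihood test. None of the remaining 5 had an unadjusted p under 0.05 in that comparison, and 0 genes were called lower in each of 23 other settings, DESeq2 and limma among them. The median log2 difference of the 7 was 0.053, against 0.0032 over all genes. Only Ppl exceeded 2-fold, where 0.496% of genes were called higher beyond 2-fold.

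The comparisons below share siCONTROL or siKEAP1 libraries with the one that chose Ppl, which was left out of their counts. Evpl was also left out against siCONTROL, because of the filter. In siCCNF against siCONTROL, 1 of the remaining 5 tested genes was higher (Pkp2) and 2 were lower (Jup and Krt19), where 22.5% and 25.5% of genes were called. In siKEAP1/siCCNF against siCONTROL the counts were 1 and 2 of 5, with the same genes in each direction, where 20.6% and 23.6% of genes were called. In siKEAP1/siCCNF against siKEAP1, 2 of 6 were higher (Pkp2 and Pkp4) and 3 lower (Plec, Jup and Krt19), where 24.1% and 26.9% of genes were called. With such shares of genes called, counts over 5 or 6 genes say little about the set, and the single genes carry the description. Between siKEAP1 and siCONTROL, Ppl, Krt19 and Evpl were over 2-fold higher and 0 of the 7 genes over 2-fold lower, given without a test. The rise of Ppl there chose the set, and the siKEAP1 and siCONTROL libraries of Evpl overlapped. Over all genes, 8.48% were over 2-fold higher and 4.87% over 2-fold lower, shares that a set chosen in this way cannot be set against.

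Krt19 was not alone among keratins. The table held 47 keratin genes beside the 3 members, of which 21 had no count in any library and 10 were tested. Of these 10, 5 (Krt7, Krt15, Krt16, Krt17 and Krt36) would not have passed the low-count filter without the siKEAP1 libraries, so that no count over all 10 is given for comparisons with siKEAP1. Among the other 5 (Krt9, Krt10, Krt13, Krt14 and Krt80), 2 were higher and 1 lower in siKEAP1 than in siCONTROL, where 20.4% and 20.2% of genes were called. Krt13, a type I keratin of internal stratified epithelia, rose from 15.2 ± 0.408 to 74.3 ± 5.03 CPM (log2 difference 2.29, SE 0.11, adjusted p = 6.37e-09, edgeR's quasi-likelihood test). Krt14, of basal epidermis, rose from 12.8 ± 3.50 to 43.4 ± 2.67 CPM (1.75, adjusted p = 7.38e-06). Krt16, known from activated epidermis, stood at 0.383 ± 0.111 CPM in siCONTROL, 9.62 ± 0.912 in siKEAP1 and 0.308 ± 0.180 in siKEAP1/siCCNF, and is given without a test because of the filter. Krt14 and Krt16 were named after their values were seen, and the type II partner of Krt14, Krt5, held 0 to 7 counts per library.

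In CCNF-depleted cells, Krt13 alone of the 10 other keratins was called after siKEAP1 (log2 difference 1.09, SE 0.15, adjusted p = 0.00098, edgeR's quasi-likelihood test), from 1.67 ± 0.382 CPM in siCCNF to 3.58 ± 0.300 in siKEAP1/siCCNF. In that comparison 3.00% of all genes tested were called higher and 2.19% lower. Like Krt19, Krt13 stayed below its siCONTROL level in both groups with siCCNF, with log2 differences of -3.19 (adjusted p = 3.8e-09) and -2.09 (adjusted p = 6.15e-08). The difference after siKEAP1 was smaller in CCNF-depleted than in control cells for 2 of the 5 keratins that passed the filter without siKEAP1 and larger for 0 (tested as an interaction, by which 10.5% of all genes had a smaller value). Of these 5, 3 were lower in siKEAP1/siCCNF than in siKEAP1 and 2 higher, where 26.9% and 24.1% of genes were called.

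**Figure D4:**
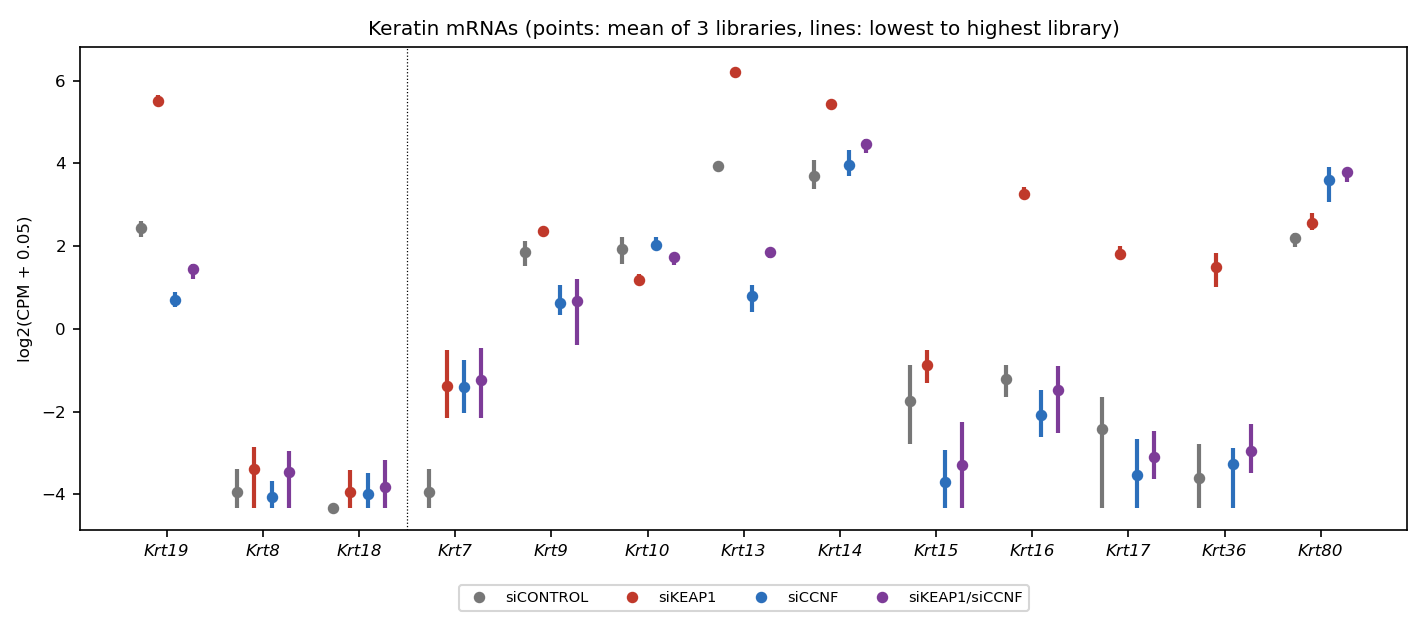
Keratin levels are plotted as log2(CPM + 0.05) for the 3 members (left of the dotted line) and the 10 other keratins tested, with points for group means and lines from the lowest to the highest of 3 libraries. Krt19, Krt13 and Krt16 were highest in siKEAP1, at 45.8, 74.3 and 9.62 CPM, while Krt8 and Krt18 stayed at the bottom of the axis, at 0.0447 CPM or less.

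Hemidesmosomes tie keratins to the basement membrane through integrins. All 7 hemidesmosome genes were higher in siKEAP1 than in siCONTROL, where 20.4% of all genes tested were called higher. For Lama3, 1 of these genes, no siCONTROL library reached the level that the low-count filter asks for. Its part in that count was thus partly fixed by the filter. Itga6, the integrin alpha chain of hemidesmosomes (named after its values were seen), stood at 20.2 ± 4.05 CPM in siCONTROL and 118 ± 5.94 in siKEAP1 (log2 difference 2.55, SE 0.173, adjusted p = 1.24e-07, edgeR's quasi-likelihood test). In siKEAP1/siCCNF it was read at 15.7 ± 4.35 CPM, and 6 of the 7 genes were lower than in siKEAP1, where 26.9% of genes were called lower. Of the 7 genes, 0 were called by edgeR in siKEAP1/siCCNF against siCCNF, 2 had an unadjusted p under 0.05 and DESeq2 called 1 higher. Over all genes tested, edgeR called 3.00% higher and 2.19% lower in that comparison. The difference after siKEAP1 was smaller in CCNF-depleted than in control cells for 5 of the 7 (tested as an interaction, 10.5% of all genes). Of 6 tested cornified envelope genes, 3 were higher after siKEAP1 and 0 lower (20.4% and 20.2% of all genes), and all 6 were lower in siCCNF than in siCONTROL (25.5% of all genes).

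Adherens junctions, which join actin filaments through classical cadherins, are the main cell contacts of myoblasts. Of 11 tested adherens junction genes, 3 were higher and 5 lower after siKEAP1, against 20.4% and 20.2% of all genes. Cdh2 (N-cadherin, the main cadherin of myoblasts) stood at 238 ± 3.44 CPM in siCONTROL, 110 ± 4.10 in siKEAP1, 197 ± 6.12 in siCCNF and 145 ± 15.6 in siKEAP1/siCCNF. It was the only 1 of the 11 called by edgeR in siKEAP1/siCCNF against siCCNF (-0.45, SE 0.0734, adjusted p = 0.00342, quasi-likelihood test), where DESeq2 called 2 lower. In that comparison edgeR called 3.00% of all genes tested higher and 2.19% lower. Of 11 other intermediate filament genes, 2 were higher and 4 lower after siKEAP1 (20.4% and 20.2% of all genes), and 9 were lower and 0 higher in siCCNF than in siCONTROL (25.5% and 22.5% of all genes). Nefl and Nefm, counted among these 9, passed the low-count filter only through the groups without siCCNF. Their part in that count was thus partly fixed by the filter. Sync (syncoilin, a muscle filament protein) was the only 1 of these 11 called by edgeR in siKEAP1/siCCNF against siCCNF, beside the same shares of all genes. DESeq2 called 2 of the 11 lower. Sync stood at 16.8 ± 1.12 against 22.8 ± 2.06 CPM (-0.44, SE 0.088, adjusted p = 0.0112, edgeR's quasi-likelihood test). That call was lost without siCCNF replicate 3 (-0.39, adjusted p = 0.0576) or siKEAP1/siCCNF replicate 2 (-0.41, adjusted p = 0.0534).

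Markers of other cell types were summed in each library. The summed level of 12 epithelial markers was 13.0 to 18.1 CPM in siCONTROL, 42.6 to 47.9 in siKEAP1, 15.8 to 23.6 in siCCNF and 23.4 to 27.2 in siKEAP1/siCCNF, and most of it was Krt14. Epcam, a defining epithelial gene, held 0 to 4 counts in every library, and Esrp1 and Ovol1 held none. Cdh1 (E-cadherin) stood at 0.252 ± 0.123 CPM in siCONTROL, 0.215 ± 0.0597 in siKEAP1, 0.949 ± 0.254 in siCCNF and 1.42 ± 0.531 in siKEAP1/siCCNF, every library with siCCNF being above every library without it. It passed the low-count filter only through the groups with siCCNF and is given without a test. Trp63 stood at 1.44 ± 0.486, 0.542 ± 0.225, 1.99 ± 0.353 and 1.61 ± 0.169 CPM in the same order. The summed level of 8 myotube markers was 53.4 to 124 CPM in siCONTROL, 3.03 to 3.36 in siKEAP1, 15.1 to 21.7 in siCCNF and 5.98 to 6.98 in siKEAP1/siCCNF. The sum of 3 leukocyte markers was 0.672 to 1.36, 5.39 to 10.1, 1.51 to 3.03 and 2.06 to 3.52 CPM in the same order, nearly all from Cd68. For 4 endothelial markers the sums were 0.448 to 0.722, 1.45 to 2.04, 0.0268 to 0.739 and 0.264 to 0.397 CPM. The part of these shifts in the values above was not tested.

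Finally, the 5 tested genes whose log2 CPM followed Ppl most closely over the 12 libraries were Gclc (Pearson r = 0.991), Adam23 (0.989), Txnrd1 (0.989), Zfand5 (0.989) and Ikbkg (0.988), a description over libraries that share 4 group means. Krt19 had r = 0.893 with Ppl over the same libraries, and Evpl 0.193. Jup and Pkp2 ran opposite to each other (r = -0.914). The 2 closest differed in how far they rose in CCNF-depleted cells, Gclc going from 42.7 ± 4.56 CPM in siCCNF to 106 ± 11.1 in siKEAP1/siCCNF and Adam23 from 9.30 ± 0.669 to 16.4 ± 1.01.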

How the data were processed

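The authors deposited 1 table of 54532 genes that holds, for each of 12 poly(A) RNA-seq libraries, a raw count of reads per gene and an FPKM value made by their sequencing provider. The gene length used is the deposited column, and FPKM rebuilt from counts and that length matched to a ratio of 0.976 to 1.03. The submitters' processing notes name HISAT2 and GRCm39, whereas 98.3% of the table's genes present in GENCODE M21, and all 10 members, have the GRCm38 coordinates of that annotation. The counting tool and its use of strand are not given in the sources used here. The table also holds the authors' log2 fold changes and p-values against siCONTROL, which were not used.

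Counts were fitted with edgeR 4.0.16 in R 4.3.3 (TMM scaling, filterByExpr with a minimum count of 10, quasi-likelihood, 4 group means over all 12 libraries). The filter left 15122 genes, and Benjamini-Hochberg adjustment ran over all of them. A gene was called at an adjusted p under 0.05. CPM are counts per 1000000 of the TMM-scaled library size, and log2 CPM used a prior count of 2. At 3 counts or fewer in every library a group was treated as at the floor. DESeq2 1.42.0 and limma 3.58.1 on log2(FPKM + 1) and log2(FPKM + 0.1) were alternatives, as were total library sizes, no filter, at least 10 counts in every library, the replicate number as a block, the compared libraries alone, a gene length trend removed with a spline of 5 degrees of freedom, and each library left out. The script was tested on simulated data. Replicate pairs differed by a chi-square of 2.84 to 39.9 per gene, so no library was counted as a duplicate.

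Groups came from the sample titles, and 0 columns of per-sample values were left unmapped. Named are the 10 members, Keap1 and Ccnf, all desmosomal cadherins with Pkp1, Pkp3 and Perp, up to 4 called genes of each other structural list with the largest log2 difference in siKEAP1/siCCNF against siCCNF, and the 5 genes closest to Ppl. Outside this rule, Eppk1, Dst, Macf1, Itga6, Lama3, Nefl, Nefm, the remaining keratins tested, Krt5 and the cell type markers Epcam, Esrp1, Ovol1, Cdh1, Trp63 and Cd68 were named after their values were seen. The members and lists were chosen with earlier results of these data known. The labels call the replicates biological without saying how the cultures were made, so p-values measure the spread between these libraries. The labels give 5% serum for growth. Which Ccnf siRNA was sequenced, and whether 30 nM is the total in the double depletion, is not stated.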

Additional observations from a re-analysis of the deposited data

Results flagged for a closer look

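For the named genes below, none of them among the 10 members, the effect of siKEAP1 differed between CCNF-depleted and control cells. The test was the interaction term of edgeR's quasi-likelihood fit over 12 libraries. Over all 15122 genes tested, 10.5% were called with a negative difference by it. Eppk1 differed by -3.89 on the log2 scale (adjusted p = 0.00133), and by -4.30 to -0.51 over 21 other settings. Perp differed by -1.52 (adjusted p = 0.00194). Among keratins, Krt14 differed by -1.26 (adjusted p = 0.00387) and Krt13 by -1.19 (adjusted p = 0.000627). Itga6 differed by -2.28 (adjusted p = 3.87e-05) and Lama3 by -2.07 (adjusted p = 0.0206). No siCONTROL library of Lama3 reached the level that the low-count filter asks for. Cdh2, which was lower after siKEAP1, differed by 0.67 (adjusted p = 0.000596), its fall being smaller in CCNF-depleted cells. Cd68, a leukocyte marker, differed by -2.60 (adjusted p = 0.00177). The targeted genes themselves differed by 0.98 for Keap1 (adjusted p = 6.99e-05) and 0.71 for Ccnf (adjusted p = 0.000442). Eppk1, Krt14, Itga6, Lama3 and Cd68 were named after their values were seen, and the comparison contains the libraries that chose Ppl. Krt16, Krt36 and the 5 genes closest to Ppl are left out. The keratins passed the low-count filter only through siKEAP1, and the others were chosen by their likeness to Ppl.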

How the results depend on the processing

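Ppl in siKEAP1/siCCNF against siCCNF kept its direction and call under 23 alternatives. So did Jup, Pkp2 and Krt19 in siCCNF against siCONTROL and in siKEAP1/siCCNF against siCONTROL and against siKEAP1, under 23 alternatives each. In the comparisons without siCONTROL, the count of members called higher fell from 2 to 1 in several. In siKEAP1/siCCNF against siCCNF it was 1 when only the compared libraries were fitted and with limma on log2(FPKM + 1) without a filter. In siKEAP1/siCCNF against siKEAP1 it was 1 with total library sizes, no filter and limma on log2(FPKM + 1) with or without a filter. Leaving out 1 library at a time gave 1 to 2 in both comparisons. Against siCONTROL, where Evpl is left out, Pkp2 was called higher in every setting. That includes the fit without both libraries with a length trend (chosen after seeing the data). The cause was not tested.

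Differences near 0 that were not called changed sign. Pkp4 in siKEAP1/siCCNF against siCCNF, at -0.00080, became 0.0033 with DESeq2, 0.029 with total library sizes, 0.0025 with at least 10 counts in every library, 0.0014 with limma at either pseudocount and without a filter, and 0.043 without both libraries with a length trend, and ranged from -0.040 to 0.043 with 1 library left out. Plec in that comparison became 0.037 with the length trend removed, and Pkp2 ranged from -0.0016 to 0.11 with 1 library left out. Plec in siCCNF against siCONTROL ranged from -0.36 to 0.028.

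With the replicate number as a block, 1 member (Pkp2) was called higher in siKEAP1/siCCNF against siKEAP1 in place of 2, and no other member's call changed. Of 18 pairs of same-numbered libraries, 4 correlated above 0.1 (r from -0.268 to 0.204). The libraries with a length trend enter several of these values, so whether the numbers pair the samples was not settled. The low counts of Evpl, Dsp, Krt8 and Krt18 limit what could be seen of them.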
